A study of Mus musculus with 6 samples.

Results

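The genes described here are 7 small heat shock proteins (Hspb1, Hspb2, Hspb3, Hspb6, Hspb7, Hspb8 and Cryab), the cochaperone Bag3 and the transcription factor Hsf1. They were taken by symbol, 9 of the 55385 genes in each expression table, and all 9 had enough reads to be tested. They were selected on the expected counts and TPM of this same comparison, whose results were known, so their values between the groups are given as a description. RNA was sequenced from mammary tissue of 3 control and 3 DMHCA-fed female mice. The labels call the tissue fibrotic mammary gland and the study's text calls it tumor. DMHCA is an agonist of the liver X receptors, LXR, which are nuclear receptors for oxidized cholesterol.

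Both groups were NeuT/ATTAC mice. These carry a constitutively active rat ErbB2 gene under the MMTV promoter, which acts mainly in mammary epithelium but also in other tissues. They also carry an FKBPv-caspase 8 fusion under the FABP4 promoter, which is active in fat cells. The fusion was dimerized with 0.4 mg/kg AP20187 from 6 weeks of age, which partly ablates mammary fat and leaves fibrotic tissue. The DMHCA group also ate a diet with 0.05% DMHCA, about 100 mg/kg, from 8 weeks of age. The control label reads "AP20187 Vehicle", which could mean AP20187 together with vehicle or the vehicle alone, and the study's text describes controls that received AP20187. The libraries held between 46358654 and 63420620 expected counts, the numbers of reads that the authors' software assigned to genes. DMHCA libraries 1 and 3 were nearly the same. Their biological coefficient of variation, which measures the spread beyond counting error, was 0.0327, against 0.376 to 0.579 in the other 5 pairs within a group, so they were summed and counted as 1 sample. The comparison therefore had 3 control and 2 DMHCA samples, and the p-values measure only the spread between these samples.

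Small heat shock proteins are ATP-independent chaperones that share an alpha-crystallin domain. They assemble into oligomers, bind unfolding proteins and hold them until an ATP-driven chaperone such as Hsp70 takes over. Hspb1 (Hsp27) and Cryab (alpha B-crystallin) are found in many tissues, whereas Hspb2, Hspb3, Hspb6 and Hspb7 are best known from skeletal muscle, heart and smooth muscle. Bag3 binds Hspb8 and Hsp70 together and directs their clients to autophagy. Hsf1 is the main activator of the heat shock response and binds inverted copies of the unit nGAAn.

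The start regions of several of these genes hold such inverted units. The motif searched was GAANNTTC, 1 pair of facing units, which reads the same on both strands. RefSeq windows of 300 bases, from 250 before to 50 after a start site, were at hand for 6 of the 9 genes: Hspb1, Hspb3, Hspb6, Hspb7, Hspb8 and Bag3. The motif was found in 5 of these 6 genes and not in the window of Hspb7, against 2442 of all 27025 genes with a window (9.04%). Counted by window, it was in 5 of 7, against 2582 of 32851 (7.86%). The stretches around the matches are shown because they carry the letters that these chaperone genes share, with the matches in capitals (RefSeq, GRCm38.p6, written 5′ to 3′ on the strand of the gene):
Hspb1, chr5:135887779-135887858, + strand: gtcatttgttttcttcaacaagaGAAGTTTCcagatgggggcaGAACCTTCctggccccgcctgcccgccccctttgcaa
Hspb8, chr5:116422845-116422944, - strand: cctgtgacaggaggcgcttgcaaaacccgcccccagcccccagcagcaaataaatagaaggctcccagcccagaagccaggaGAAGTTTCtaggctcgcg
Hspb6, chr7:30553141-30553220, + strand, second start site: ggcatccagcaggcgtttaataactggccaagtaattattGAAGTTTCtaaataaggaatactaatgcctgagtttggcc
Bag3, chr7:128523603-128523632, + strand: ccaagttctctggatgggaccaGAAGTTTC
Hspb3, chr13:113663847-113663926, - strand: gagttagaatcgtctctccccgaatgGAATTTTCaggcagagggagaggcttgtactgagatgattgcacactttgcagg

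Hspb1, Hspb8, Hspb6 and Bag3 held the same 8 letters, GAAGTTTC, which were found on either strand in 398 of the 32851 windows (1.21%). That 8-letter word was picked after the stretches were seen. Hspb1 held a pair of matches, at -117 to -110 and at -97 to -90 counted from its start site. In Hspb8 and Bag3 the match lay just past the start, at 3 to 10 and at 43 to 50. The match in Hspb6 lay at -120 to -113 of its second start site, and that in Hspb3 at -224 to -217. The opposite arrangement, TTCNNGAA, was in 0 of the 7 windows of these genes and in 8.52% of all windows. A direct repeat of AGGTCA spaced by 4 bases, the textbook letters bound by LXR, was in 0 of the 7 windows on either strand and in 5 of the 32851 windows. Of the members without a stretch shown, Hspb7 lies at chr4:141420779-141425311 and Hsf1 at chr15:76477422-76501913, both on the + strand of GRCm38. A match of letters is a description of the sequence and does not show binding.

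The transcript levels of the members spanned a wide range. They were compared between genes as TPM, transcript values that the authors divided by gene length and scaled to a sum of 1000000 in each library. Hspb1 was at 137 to 308 TPM over the 6 libraries and Cryab at 23.8 to 272 TPM. Hspb8, Bag3 and Hsf1 were at 6.77 to 45.6, 14.2 to 35.0 and 17.3 to 30.4 TPM. Hspb6 was at 6.97 to 13.8 TPM and Hspb2 at 1.52 to 16.4 TPM. Hspb7 and Hspb3 had the lowest levels, at 0.76 to 2.87 and 0.21 to 1.15 TPM. Neighbours in this order overlapped over the libraries, from Hspb1 and Cryab down to Hspb7 and Hspb3, except Hsf1 and Hspb6. Hspb7 was above Hspb3, Hspb2 above Hspb7 and Cryab above Hspb8 in each of the 6 libraries. In DMHCA library 2 Cryab (23.8 TPM) was below Bag3 (35.0 TPM) and Hsf1 (30.4 TPM), and Hspb6 was above Hspb8 in all 3 DMHCA libraries.

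**Figure D1:**
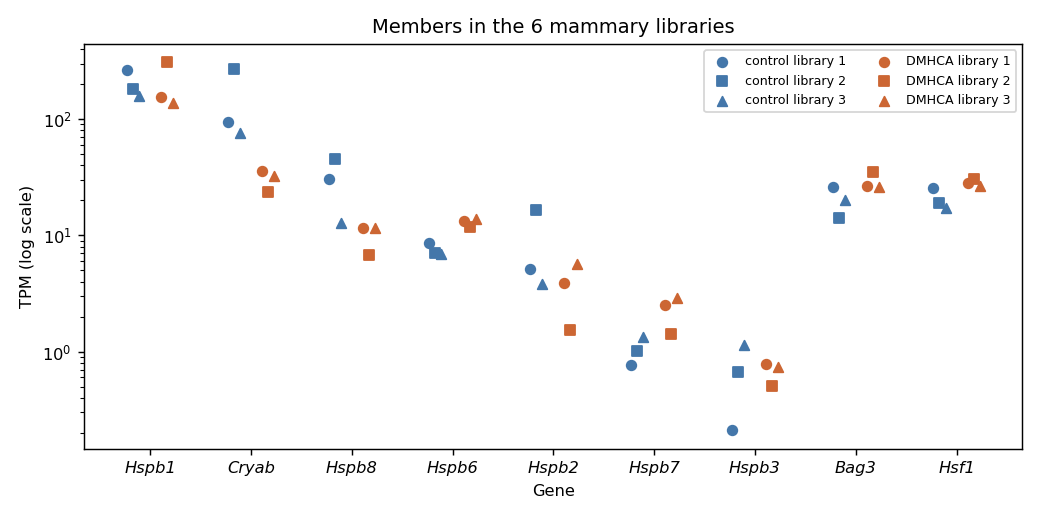
TPM of each of the 9 genes (log axis) in 6 libraries, with control in blue and DMHCA in orange and 1 symbol for each replicate number. DMHCA libraries 1 and 3 (circle and triangle) are nearly identical and count as 1 sample. The DMHCA points of Cryab and Hspb8 lie below all control points, and those of Hspb6, Hspb7 and Hsf1 lie above them.

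DMHCA was then compared with control on normalized counts, that is, expected counts scaled by the TMM method to a common library size. Mean counts were lower in the DMHCA samples for 5 members (Cryab, Hspb8, Hspb2, Hspb3 and Hspb1) and higher for 4 (Hspb7, Hspb6, Bag3 and Hsf1), and 0 of the 9 genes passed an adjusted p of 0.05 in edgeR's quasi-likelihood F-test. The same test called 0% of the 19427 genes at that threshold, and its smallest adjusted p over all genes was 0.644. With DESeq2 on the same 5 samples 1 of the 9, Cryab, passed an adjusted p of 0.05 (1.22% of all genes), and with DESeq2 on the 6 libraries Cryab and Hspb8 did (4.45% of all genes), whereas limma on log2 TPM called 0 of the 9. At an unadjusted p under 0.05 edgeR took 2 of the 9, Cryab and Hspb8, both lower. That count was 1 (Cryab) without control 2 and 0 without DMHCA library 2. Of all genes tested 4.08% were lower and 3.53% higher at that level (7.61% in either direction). For 2 members, Cryab and Hspb8, every DMHCA sample lay below every control, against 12.2% of all genes. For 3 members, Hspb6, Bag3 and Hsf1, every DMHCA sample lay above every control, against 13.8% of all genes. These shares stand beside the counts as background only, because the genes were listed from this comparison. The median log2 fold change of the 9 genes was -0.04 and that of all genes tested was -0.03. In bulk tissue, fewer cells of a type and less RNA per cell cannot be told apart.

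**Figure D2:**
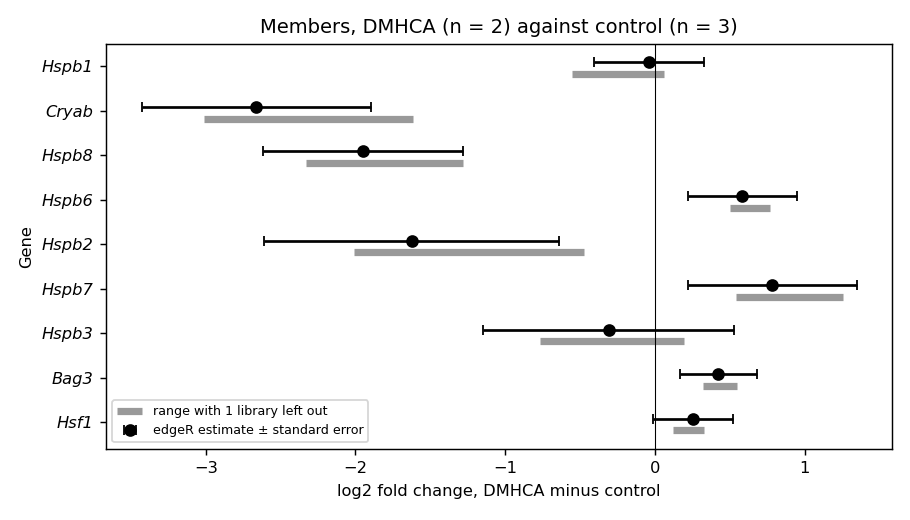
log2 fold change of DMHCA minus control for each member (black point, edgeR estimate with its standard error, 2 against 3 samples), and in grey the range of the estimate when 1 library was left out. Cryab (-2.66) and Hspb8 (-1.95) lie farthest from 0, and the ranges of Hspb1 and Hspb3 cross 0.

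Cryab, the partner of Hspb1 in many mixed oligomers and a chaperone of desmin and other filaments, differed the most. Control samples 1, 2 and 3 held 3009, 11932 and 2655 normalized counts. DMHCA libraries 1 and 3 together held 1126, and DMHCA library 2 held 725. Both DMHCA samples lay below every control sample, with the lowest control at 2.36 times the higher DMHCA sample. Control 2 stood far above the other controls. The control mean was 5865 ± 5257 (SD, n = 3) and the DMHCA mean 925 ± 284 (SD, n = 2), which gave a log2 fold change of -2.66 ± 0.77 (SE, the standard error of the fit) and an adjusted p of 0.644 (edgeR). Without control 2 the log2 fold change was -1.61, and over all libraries left out in turn it ran from -3.01 to -1.61.

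Hspb8 (Hsp22), the small heat shock protein that Bag3 carries in its autophagy complex, was ordered like Cryab. Normalized counts of Hspb8 were 2291, 4615 and 1035 in the controls, against 891 (libraries 1 and 3) and 480 (library 2) in DMHCA. Control 2 was again the highest and DMHCA library 2 the lowest. The groups did not overlap, but control 3 was only 1.16 times the higher DMHCA sample. The means were 2647 ± 1816 (SD, n = 3) and 685 ± 291 (SD, n = 2), with a log2 fold change of -1.95 ± 0.67 (SE), with an adjusted p of 0.644 (edgeR). The study, which used DESeq2, lists Hspb8 among the damage-associated genes lowered by DMHCA. Here DESeq2 gave Hspb8 an adjusted p of 0.0337 on the 6 libraries and of 0.174 on the 5 samples. Leaving out 1 library gave -2.33 to -1.28, the latter without control 2.

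Within the control group 5 of the 9 genes varied more than the median gene. The highest control sample was 6.07 times the lowest for Hspb3, 5.45 times for Hspb2, 4.49 times for Cryab, 4.46 times for Hspb8 and 1.90 times for Hspb7. Over 19215 genes with reads in every control the median of this ratio was 1.80 and the 90th percentile 5.93. The ratio was 1.49 for Hspb1, 1.38 for Bag3, 1.36 for Hsf1 and 1.25 for Hspb6, all under that median. Control 2 was the highest control sample for Hspb2, Hspb6, Hspb8, Cryab and Hsf1, 5 of the 9 genes, and for 38.3% of the 19215 genes.

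Hspb2 lies head to head with Cryab and is transcribed the other way. In the GENCODE M21 annotation of GRCm38, Hspb2 is at chr9:50751078-50752354 on the - strand and Cryab at chr9:50751325-50756636 on the + strand. Their exons share 252 bases, of the 834 exon bases of Hspb2. Whether the authors' counting used strand is not given in the sources used here, so reads from the shared bases cannot be told apart. Normalized counts of Hspb2 were 105, 431 and 79.2 in the controls, against 103 (libraries 1 and 3) and 29.1 (library 2) in DMHCA. Control 2 was the highest and DMHCA library 2 the lowest, as for Cryab, but the groups overlapped. The log2 fold change was -1.63 ± 0.98 (SE), with an adjusted p of 0.675 (edgeR), and it was -0.47 without control 2. The ratio of Hspb2 to Cryab in TPM was 0.0501 to 0.0602 in the controls, and 0.0639 to 0.176 in the DMHCA libraries.

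Hspb1, which binds actin and had the highest TPM of the 7 in every library but control 2, had nearly equal means in both groups, with a wide spread in DMHCA. The control samples held 8650, 8196 and 5801 normalized counts, against 5005 (libraries 1 and 3) and 9685 (library 2) in the DMHCA samples. The DMHCA samples lay on either side of all controls. The log2 fold change was -0.04 ± 0.37 (SE), with an adjusted p of 0.979 (edgeR).

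Hspb6 (Hsp20), a phosphoprotein linked to relaxation of smooth muscle and to cardiac protection, lay higher in both DMHCA samples. Normalized counts were 470, 518 and 413 in the controls, against 773 (libraries 1 and 3) and 628 (library 2) in DMHCA. The groups did not overlap, and the lower DMHCA sample was 1.21 times the highest control. The log2 fold change was 0.59 ± 0.36 (SE), with an adjusted p of 0.679 (edgeR), and it ranged from 0.50 to 0.77 when 1 library was left out. Hspb6 shares 122 of its 2299 exon bases with Proser3 and 3 with Lin37, both on the opposite strand, and 77 with Gm38670 on the same strand.

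Hspb7, which binds filamin C in muscle, and Hspb3, a partner of Hspb2 in muscle, were low throughout. For Hspb7 the normalized counts were 90.1, 164 and 171 in the controls, against 329 (libraries 1 and 3) and 159 (library 2) in DMHCA. DMHCA library 2 lay within the controls on this scale but above them in TPM (1.42 against at most 1.33). The log2 fold change was 0.78 ± 0.56 (SE), with an adjusted p of 0.711 (edgeR), and it ran from 0.54 (without control 1) to 1.26 (without DMHCA library 2). For Hspb3 they were 5.77, 25 and 35 in the controls and 21.7 and 13.4 in DMHCA. Both DMHCA values of Hspb3 lay within the controls, and the log2 fold change was -0.31 ± 0.84 (SE).

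The makeup of the small heat shock transcripts differed between libraries. The 7 genes summed to 402, 525 and 261 TPM in control libraries 1, 2 and 3 and to 221, 354 and 204 TPM in DMHCA libraries 1, 2 and 3. These sums overlapped. Hspb1 made up 65.3%, 34.7% and 61.1% of the sum in the controls and 69.5%, 87.0% and 67.1% in the DMHCA libraries. Cryab made up 23.4%, 51.9% and 29.0% in the controls and 16.0%, 6.72% and 15.9% in the DMHCA libraries. Every DMHCA library therefore had a higher share of Hspb1 and a lower share of Cryab than every control. The closest Hspb1 shares were 67.1% and 65.3%, and DMHCA libraries 1 and 3 count as 1 sample. Because the shares are parts of 1 sum, a lower share of Cryab by itself raises that of Hspb1. In TPM, Hspb1 was below every control in DMHCA libraries 1 and 3 (154 and 137). It was above every control in DMHCA library 2 (308). Control 2 was the only library with more Cryab than Hspb1, at 272 against 182 TPM.

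**Figure D3:**
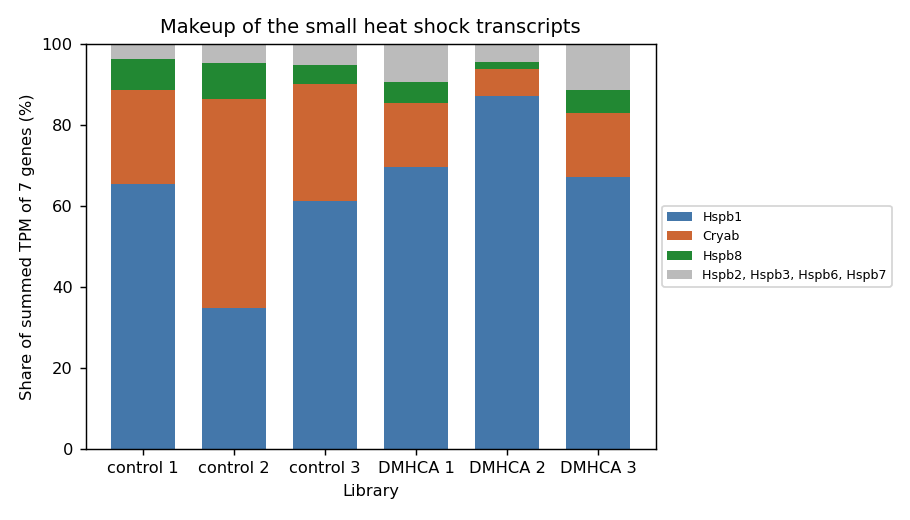
Share of each gene in the summed TPM of the 7 small heat shock genes (y axis, percent), 1 bar for each library. Hspb1 (blue) takes 67.1% to 87.0% in the DMHCA libraries and 34.7% to 65.3% in the controls, and Cryab (orange) takes 6.72% to 16.0% and 23.4% to 51.9%.

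Bag3, the scaffold of chaperone-assisted autophagy, was on the other side of the comparison from its partner Hspb8. Normalized counts of Bag3 were 2884, 2089 and 2373 in the controls, against 2971 (libraries 1 and 3) and 3605 (library 2) in DMHCA. Both DMHCA samples were above all controls, though the lower was only 1.03 times control 1, and in TPM DMHCA libraries 1 and 3 (26.5 and 26.1) lay on either side of control 1 (26.3). The log2 fold change was 0.42 ± 0.26 (SE), with an adjusted p of 0.675 (edgeR), and it ran from 0.32 to 0.55 when 1 library was left out. The ratio of Hspb8 to Bag3 in TPM was 1.16, 3.22 and 0.634 in control libraries 1, 2 and 3, and 0.433, 0.194 and 0.440 in DMHCA libraries 1, 2 and 3. The ratio was lower in each DMHCA library than in each control.

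Hsf1 showed a small difference of the same direction as Bag3. Its normalized counts were 2056, 2065 and 1517 in the controls, against 2187 (libraries 1 and 3) and 2301 (library 2) in DMHCA. The groups did not overlap, with the lower DMHCA sample 1.06 times the highest control. The log2 fold change was 0.26 ± 0.26 (SE), with an adjusted p of 0.783 (edgeR), and it ran from 0.12 (without control 3) to 0.33 when 1 library was left out. Hsf1 is regulated mainly at the protein level, by release from chaperones, trimer formation and phosphorylation, none of which was measured here.

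The chaperone genes that Hsf1 is known to activate were split between the directions. Of 21 such genes, all of which were tested, 11 had a higher and 10 a lower mean in DMHCA, and their median log2 fold change was 0.00 (all genes tested, -0.03). At an unadjusted p under 0.05 there were 0 higher and 1 lower, Hspa4l, a member of the Hsp110 family, and 0 without DMHCA library 2. Hspa4l held 2092, 2533 and 2238 normalized counts in the controls and 1190 (libraries 1 and 3) and 1349 (library 2) in DMHCA. Its groups did not overlap, and the log2 fold change was -0.85 ± 0.26 (SE), with an adjusted p of 0.644 (edgeR). Fkbp4, an Hsp90 cochaperone, differed by a log2 value of 0.70 ± 0.37 (SE) with overlapping groups and by 0.23 without DMHCA library 2, and Cacybp, a partner of the Siah1 ubiquitin ligase, by -0.50 ± 0.28 (SE) and by -0.31 without control 2.

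The inducible Hsp70 genes and their J-protein partner are named here after their values were seen, because they are the best known reporters of a heat shock response. Hspa1b held 10040, 7913 and 9344 normalized counts in the controls and 9866 and 8628 in DMHCA. Its log2 fold change was 0.023 ± 0.26 (SE), from -0.069 to 0.16 when 1 library was left out, and both DMHCA samples lay within the controls. Hspa1a had a log2 fold change of 0.16 and Dnajb1 one of 0.17, also with overlapping groups, but Hspa1a was at 0.079 without control 2 and Dnajb1 turned to -0.13 without DMHCA library 2. Hspa1a and Hspa1b are near-identical copies, so the split of reads between them is uncertain.

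The other members of the BAG family all had higher means in DMHCA (5 of 5), against 9328 of the 19427 genes tested. Their median log2 fold change was 0.39, which ran from 0.24 (without control 3) to 0.59 (without control 2) when 1 library was left out. At an unadjusted p under 0.05 there was 1 higher, Bag1, and 0 lower, and without control 1 or control 3 there was none. Bag1, which links Hsp70 clients to the proteasome, held 7288, 8486 and 7913 normalized counts in the controls and 16594 (libraries 1 and 3) and 11260 (library 2) in DMHCA. Both DMHCA samples stood above a tight control group, and the log2 fold change was 0.82 ± 0.28 (SE), with an adjusted p of 0.644 (edgeR). Bag6, which guards membrane proteins before insertion, differed by a log2 value of 0.53 ± 0.30 (SE) with groups that did not overlap (0.35 without DMHCA library 2), and Bag5 by 0.37 ± 0.30 (SE) with groups that did, and by 0.064 without DMHCA library 2. These 5 genes, without Bag3, summed to 237 to 290 TPM in the controls and to 451 to 465 TPM in the DMHCA libraries. Much of that sum was Bag1, at 119 to 138 TPM in the controls and 226 to 307 TPM in the DMHCA libraries. The TPM scale itself lay higher in DMHCA, with a median log2 fold change of all genes of 0.11 on log2(TPM + 1), against -0.03 on counts. The ratio of Bag1 to Bag3 in TPM, a pair known to change places between proteasome and autophagy use, was 5.23, 8.40 and 6.86 in the controls and 11.6, 6.45 and 11.7 in the DMHCA libraries, which overlapped.

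Known partners of Bag3 in chaperone-assisted autophagy gave 0 of 12 genes at an unadjusted p under 0.05, with 4 higher and 8 lower means and a median log2 fold change of -0.13, which was -0.0042 without control 2. Vps18, a subunit of the vesicle fusion machinery that Bag3 recruits through synaptopodin-2, held 2263, 2165 and 1788 normalized counts in the controls and 3121 and 2913 in DMHCA. It was the only one of the 12 whose groups did not overlap, with a log2 fold change of 0.54 ± 0.24 (SE). Synpo, an actin-bound podocyte and neuron protein, differed by a log2 value of -0.87 ± 0.41 (SE).

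Of the other small heat shock genes, 1 of 4 was tested. Hspb11, which is now known as a part of the intraflagellar transport complex, held 301, 619 and 598 normalized counts in the controls and 274 and 324 in DMHCA, with overlapping groups and an estimate of -0.76 ± 0.49 (log2 fold change, standard error). The lens crystallin Cryaa and the testis genes Hspb9 and Odf1 had too few reads to be tested. In the family of heat shock factors and their binding proteins, 4 of 6 genes were tested, 0 of them reached an unadjusted p under 0.05, and the median was -0.22 (-0.13 without control 2 and -0.047 without DMHCA library 2). Its genes with the smallest p were Hsbp1l1 at -0.79 ± 0.62 (SE), Hsbp1, a negative regulator of Hsf1, at -0.28 ± 0.34 (SE), and Hsf2 at -0.16 ± 0.34 (SE). These estimates rested on single libraries, since without control 2 Hsbp1l1 was at -0.34 and Hsbp1 at 0.00098, and without control 3 Hsf2 was at -0.011.

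The TRiC chaperonin, the ring that folds actin and tubulin, had 0 of 8 subunit genes at an unadjusted p under 0.05 and a median log2 fold change of -0.09. The direction rested on control 2: without it 7 of 8 were higher, with a median of 0.15, and without control 3 the median was -0.21. In the fit of all samples its values were close to one another, with Cct8 at -0.30 ± 0.33 (SE), Cct5 at 0.19 ± 0.32 (SE) and Cct4 at -0.13 ± 0.31 (SE). With 1 library left out Cct8 ran from -0.50 to -0.069, Cct5 from 0.046 to 0.37 and Cct4 from -0.28 to 0.066. Immediate early genes, which respond within minutes to growth factors and to handling of tissue, had 0 of 10 at that level and a median of 0.00, which was 0.39 without DMHCA library 2 and 0.30 without control 3. Ier2 (log2 fold change 0.48 ± 0.25, SE), Zfp36 (log2 fold change 0.61 ± 0.39, SE) and Dusp1 (log2 fold change -0.70 ± 0.47, SE) did not lie to one side. With 1 library left out Zfp36 ran from 0.42 to 1.10 and Dusp1 from -0.97 to -0.27.

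**Figure D4:**
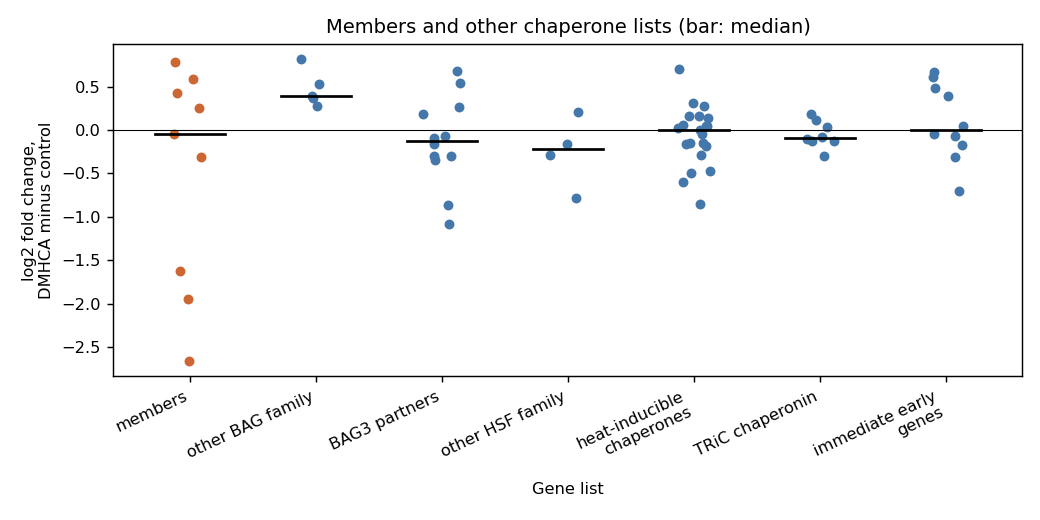
log2 fold change of DMHCA minus control (y axis) for the members (orange) and for the tested genes of 6 related lists (blue), 1 point for each gene, with a bar at the median of each list. The members spread from -2.66 to 0.78, while the BAG genes lie between 0.28 and 0.82 and the 21 heat-inducible genes between -0.85 and 0.70.

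Cryab, Hspb2, Hspb3, Hspb6, Hspb7 and Hspb8 are also muscle genes, so marker genes of muscle and of other cell types are given beside them. The 18 skeletal muscle markers, among them Tnnt3, Tnnc2 and Mylpf, summed to 1133, 2008 and 1459 TPM in control libraries 1, 2 and 3 and to 1591, 462 and 1721 TPM in DMHCA libraries 1, 2 and 3. None of the 18 was at 0 in all libraries. They had lower means in DMHCA for 17 of 18 genes, with a median log2 fold change of -0.60 and 0 of 18 at an unadjusted p under 0.05. Without DMHCA library 2 the count turned to 13 higher and 5 lower, with a median of 0.078, and without control 2 the median was -0.26. Control 2 had both the highest muscle sum and the most Cryab, Hspb8 and Hspb2, and DMHCA library 2 had the lowest muscle sum and the least of these genes. In DMHCA libraries 1 and 3, however, the muscle sums were above those of controls 1 and 3, while Cryab was at 35.5 and 32.4 TPM against 94.0 and 75.6 TPM in those controls. Hspb6 was higher in DMHCA library 2 (11.9 TPM) than in every control (6.97 to 8.53 TPM), with the lowest muscle sum of all libraries.

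**Figure D5:**
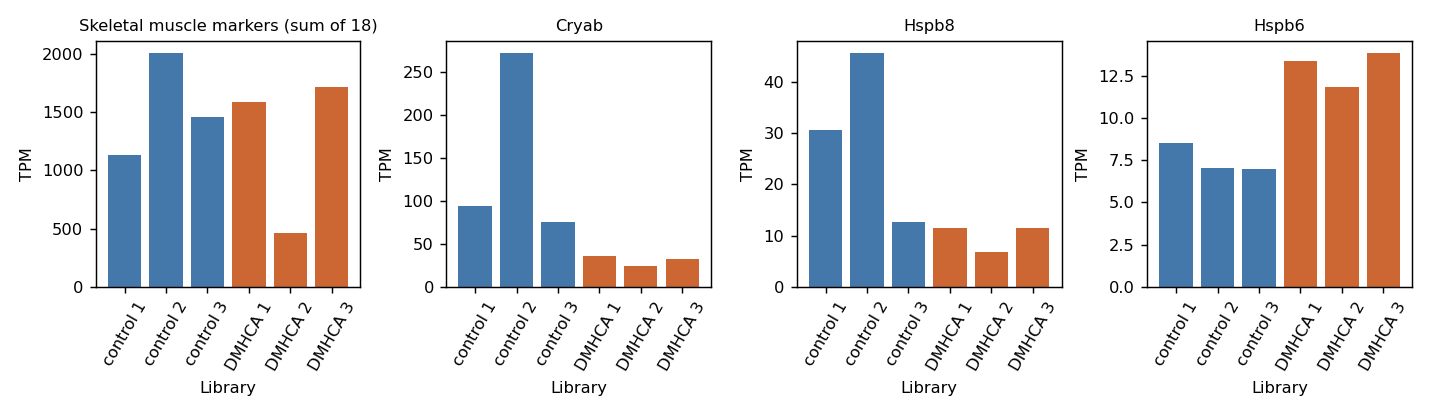
Summed TPM of 18 skeletal muscle markers, and TPM of Cryab, Hspb8 and Hspb6, in each library (bars from 0, control in blue, DMHCA in orange, each panel with its own scale). Control 2 is highest in the muscle, Cryab and Hspb8 panels. DMHCA 1 and 3 have muscle sums of 1591 and 1721 TPM but low Cryab.

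The 11 smooth muscle and pericyte markers, among them Smtn, Tagln and Acta2, summed to 203 to 276 TPM in the controls and 248 to 331 TPM in DMHCA, with 0 of 11 at an unadjusted p under 0.05. The 7 myoepithelial markers, among them Krt14, Krt5 and Oxtr, summed to 14.8, 2.81 and 58.6 TPM in the controls and 4.31 to 9.97 TPM in DMHCA. All 7 had lower means, with a median log2 fold change of -2.42 (-0.71 without control 3), and 1 of 7 was lower at that level. In control 2, where Cryab was highest, the myoepithelial sum was the lowest of the 6 libraries. The luminal epithelial markers Krt18, Epcam and Krt8 belong to a list of 10 that summed to 3647 to 4986 TPM in the controls and 5492 to 5770 TPM in DMHCA. Of these 5 had higher and 5 lower means, and 1 was lower at an unadjusted p under 0.05. The 10 fibroblast markers, among them Col3a1, Postn and Dcn, summed to 462 to 1613 TPM in the controls and 885 to 939 TPM in DMHCA, with 0 of 10 at that level.

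Adipocyte markers, among them Fabp4, Car3 and Cfd, separated the groups: 9 of 11 were lower in DMHCA at an unadjusted p under 0.05, and they summed to 463, 231 and 1826 TPM in the controls and 127 to 155 TPM in DMHCA. Among the controls their sum was lowest in control 2, where Cryab and Hspb8 were highest. The 6 B cell markers, among them Cd79a, Cd79b and Cr2, were all lower at that level, at 35.5, 1.13 and 300 TPM in the controls and 2.06 to 2.50 TPM in DMHCA, so control 2 lay below the DMHCA libraries. The 11 salivary gland markers, of which Smgc was at 0 in all libraries, summed to 8146, 30.4 and 194 TPM in the controls and 1171, 64.1 and 1205 TPM in DMHCA, and 3 were lower at that level. Bpifa2 (5131 TPM) and Amy1 (1273 TPM) were the highest of that list in control 1, and Car6 (1113 and 1160 TPM) was the highest in DMHCA libraries 1 and 3. Without control 1 the log2 fold changes of Cryab and Hspb8 were -2.97 and -2.03. The part of these cell types in the values of the members was not tested.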

How the data were processed

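RNA-seq of 6 libraries was analysed from the authors' RSEM tables. Per the labels and the study's methods, reads were checked with FastQC 0.11.9, trimmed with cutadapt 2.9, and aligned and counted with Bowtie2 2.4.1 and RSEM 1.3.1 on mm10. The authors deposited expected counts (not normalized), TPM and FPKM, and FPKM was not used. The strand setting is not given in the sources used here.

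Expected counts were rounded to whole numbers and summed to 46358654 to 63420620 per control library and 52330938 to 55539411 per DMHCA library. DMHCA libraries 1 and 3 were summed as 1 sample, because their biological coefficient of variation, in genes averaging 100 counts or more, was 0.0327. The chi-square test of their counts differed at p under 0.05 for 18.2% of 13380 genes, against 82.0% to 87.0% in other pairs. Samples were grouped by their labels. The fit used edgeR 4.0.16 in R 4.3.3, with TMM scaling, filterByExpr and the quasi-likelihood F-test over 19427 genes, with Benjamini-Hochberg adjustment. It was tested on simulated data. Same-numbered control and DMHCA libraries were correlated at -0.05, 0.34 and 0.35 in their deviations from the group means, so the numbers were not taken as pairs. The alternatives were DESeq2 1.42.0, limma 3.58.1 on log2 TPM, 6 libraries with and without a replicate block, other scalings and filters on low counts, and each library left out.

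The members and lists were chosen with earlier results of these data known. Besides the members, the genes named are up to 3 with the smallest p in each list of related genes and up to 3 with the highest TPM in each marker list. Of these, 1 gene is not reported here. Hspa1a, Hspa1b and Dnajb1 were added after their values were seen, and Cryaa, Hspb9, Odf1 and Smgc are named only as not tested or listed at 0. Positions are from GENCODE M21, matched for 99.6% of the genes.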

Additional observations from a re-analysis of the deposited data

How the results depend on the processing

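The direction of Hspb2, Hspb6, Hspb7, Hspb8, Cryab, Bag3 and Hsf1 was kept under all alternatives run. That of Hspb1 turned to 0.10 with limma on log2(TPM + 1) and on log2(TPM + 0.1), 0.058 without control 1 and 0.023 without control 2, and ran from -0.55 (without DMHCA library 2) to 0.058 with a library left out. That of Hspb3 turned to 0.12 with limma on log2(TPM + 0.1), 0.20 without control 3 and 0.033 without DMHCA library 2, and ran from -0.77 (without control 1) to 0.20. Hspb3 was not tested under the stricter filter. The median log2 fold change of all genes was -0.03 on counts and 0.11 on log2(TPM + 1). Members with an adjusted p under 0.05 numbered 0 in the edgeR fits, 1 with DESeq2 on 5 samples (Cryab, adjusted p = 0.0411) and 2 with DESeq2 on 6 libraries (Cryab, 0.00190, and Hspb8, 0.0337), which counts the near-identical DMHCA libraries as separate samples. Over all genes these numbers were 244 and 887, and 16 without a filter on low counts.

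At an unadjusted p under 0.05, DESeq2 on 6 libraries took 4 members, and leaving out a library gave 0 (without DMHCA library 2) to 2, with 1 without control 2. Over all genes the count was 2912 with 6 libraries, 2370 and 3652 with DESeq2 on 5 samples and 6 libraries, 2808 without a filter, and 918 (without DMHCA library 2) to 1800 with a library left out. With the replicate block, on 6 libraries, it was 3207 over all genes, 2 for the Bag3 partners, 3 for the heat-inducible genes and 1 for the immediate early genes, and no member passed an adjusted p of 0.05 (Cryab, 0.227, and Hspb8, 0.281). Without the block the 6 libraries gave 2 Bag3 partners and 3 heat-inducible genes. DESeq2 on 6 libraries gave 1 for the other small heat shock genes and 2 for the Bag3 partners, and limma on TPM gave 1 immediate early gene with either pseudocount. With a library left out the counts were 0 (without control 1 or control 3) to 1 for the other BAG genes, 0 to 1 for the Bag3 partners (1 without control 2), 0 to 1 for the heat shock factors (1 without control 3), 0 (without DMHCA library 2) to 1 for the heat-inducible genes and 0 to 2 for the immediate early genes (2 without DMHCA library 2, 1 without control 1). The cause of these differences was not tested. The other 146 count results stayed within 1.5 times their main value. With 2 DMHCA samples, fits without DMHCA library 2 rest on a lone DMHCA sample that is assumed to vary like the controls.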
